A study of Equus caballus with 4 samples.

Results

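Splicing factors and heterogeneous nuclear ribonucleoproteins (hnRNPs) were described in differentiating equine satellite cells, the stem cells of skeletal muscle, that were pre-incubated with gamma-oryzanol (GO) before an exposure to H2O2 (hydrogen peroxide). The members were the gene probes of the array whose gene symbol starts with HNRNP, HNRP, SRSF, SFRS, SF3A, SF3B or SNRP followed by a family letter or number. This rule found 36 genes with 85 probes among 43603 gene probes carrying 24998 gene names. They formed 4 families: 14 hnRNP genes with 42 probes, 7 serine/arginine-rich (SR) protein genes with 11 probes, 7 genes of the SF3A and SF3B complexes with 12 probes, and 8 SNRP genes with 20 probes. The SNRP genes code for proteins of the small nuclear ribonucleoproteins (snRNPs).

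Introns are removed from pre-mRNA by the spliceosome, which is assembled from snRNPs, each a short RNA with a ring of Sm proteins and proteins of its own. SF3A and SF3B belong to the U2 snRNP, which binds the branch point of the intron. SR proteins mostly promote the use of nearby splice sites, whereas hnRNPs coat nascent RNA and often act against that use, and the balance between both groups sets many alternative splicing choices, also in muscle differentiation. Transcripts of many of these genes are themselves alternatively spliced, and different probes of a gene then need not measure the same transcripts.

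Cells from m. semitendinosus were studied on day 3 of differentiation. The treated cells had received 0.125 µM GO, the ferulic acid esters of plant sterols found in rice bran, for 24 h, and H2O2 at 3 mM during the last 1 h. The control cells had received no GO. Whether H2O2 was added to them is not stated in the labels, whereas the study describes its controls as exposed to it, and both media held the vehicle. According to the methods a single primary line, from muscle of young stallions, was selected by viability and fusion, so that the 4 replicates stand for cultures and not necessarily for animals. The design lists 4 control replicates, but the array labels give the control the same replicate suffix each time. If controls were shared, p-values would measure in part technical spread.

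RNA with an integrity number of at least 9.2 was compared on 4 two-colour arrays of 1 slide, with treated RNA in red (Cy5) and control RNA in green (Cy3). Positive log2 ratios stand for more signal in the treated cells. The dyes were not swapped on any array, so dye and treatment cannot be told apart. Between 54.9% and 61.4% of gene spots per array and channel were well above background, and Pearson's r of the ratios between arrays ranged from 0.174 to 0.697 across probes. With 4 arrays the precision of every value is limited by their number. Markers of satellite and muscle cells were measured for 15 of 20 listed genes (median log2 ratio 0.33). Of these, 11 were called higher in treated cells (73.3%, against 9.93% of all gene names). None of the 5 endothelial and 4 adipocyte markers on the array passed the filter on dim probes. Of the leukocyte markers, 3 of 6 passed it and 1 of these was lower (33.3%, against 7.16% of all gene names). Of the fibroblast markers 7 of 9 passed it, with 1 higher and 1 lower (14.3% each). The leukocyte and fibroblast shares rest on few genes. The part of these shifts in the results for splicing genes was not tested, and fewer cells of a type cannot be told apart from less RNA per cell.

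The filter kept 82 of the 85 member probes, from 35 of the 36 genes, and each of these 82 was well above background in both channels on all 4 arrays. The SF3B4 probe was not well above background on any array in either channel. A second probe of SRSF1 and a second probe of SRSF10 were left out as well. By limma, with Benjamini-Hochberg adjustment over 24230 probes, 17 of the 82 member probes (20.7%) passed the adjusted threshold of 0.05, against 17.1% of all tested probes, so the share of called members was close to the background. By direction, of the called member probes 16 were lower in treated cells (19.5%, against 7.59% of all probes) and 1 was higher (1.22%, against 9.49%). Without adjustment 35 member probes (42.7%) had a p under the threshold, against 36.7% of all tested probes. None of the 17 calls remained when replicate 1, 3 or 4 was left out, where 0 to 38 of all tested probes passed.

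The called probes came from 10 genes, with lower values for HNRNPA1, HNRNPF, HNRNPH1, HNRNPLL, HNRNPU, SRSF7, SF3A3, SNRPB2 and SNRPD1 and a higher value for HNRNPUL1. Many probes of a gene overlap and share most of their bases, so each gene was also counted once, by its brightest tested probe. Then 7 of 35 genes were lower (20%, against 7.16% of all gene names) and 0 were higher (against 9.93%). An unadjusted limma p under the threshold was found for 17 genes (48.6%, against 36.7% of all gene names). By the methods' t-test 0 genes passed the threshold after adjustment, and next to none of all tested probes did. HNRNPU, SNRPD1 and HNRNPUL1 were called through other probes than their brightest. The remaining 25 genes had no called probe, and the smallest adjusted p of their brightest probes was 0.0660 (limma), that of SF3B1.

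The differences were small. The mean log2 ratio was below 0 for 58 of 82 member probes (70.7%), compared with 49.2% of all tested probes, and its median was −0.07, compared with 0.003. On replicates 1 to 4 the median of the members was −0.10, −0.02, −0.07 and −0.06. It was therefore below 0 on each array and nearest to 0 on replicate 2, where 43 of 82 probes were below 0. On all 4 arrays alike, 31 of the 82 member probes were below 0 and 9 above, against 5130 and 5482 of all 24230 tested probes. With 1 probe per gene these were 15 and 5 of 35 genes. A fold change of at least 1.3 was reached by 3 called probes, all lower and all overlapping probes of HNRNPA1. Of all tested probes, 0.289% were called lower at that size. With 1 probe per gene, 0 of 35 genes were called at that size, against 195 of 13692 gene names in either direction.

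**Figure D1:**
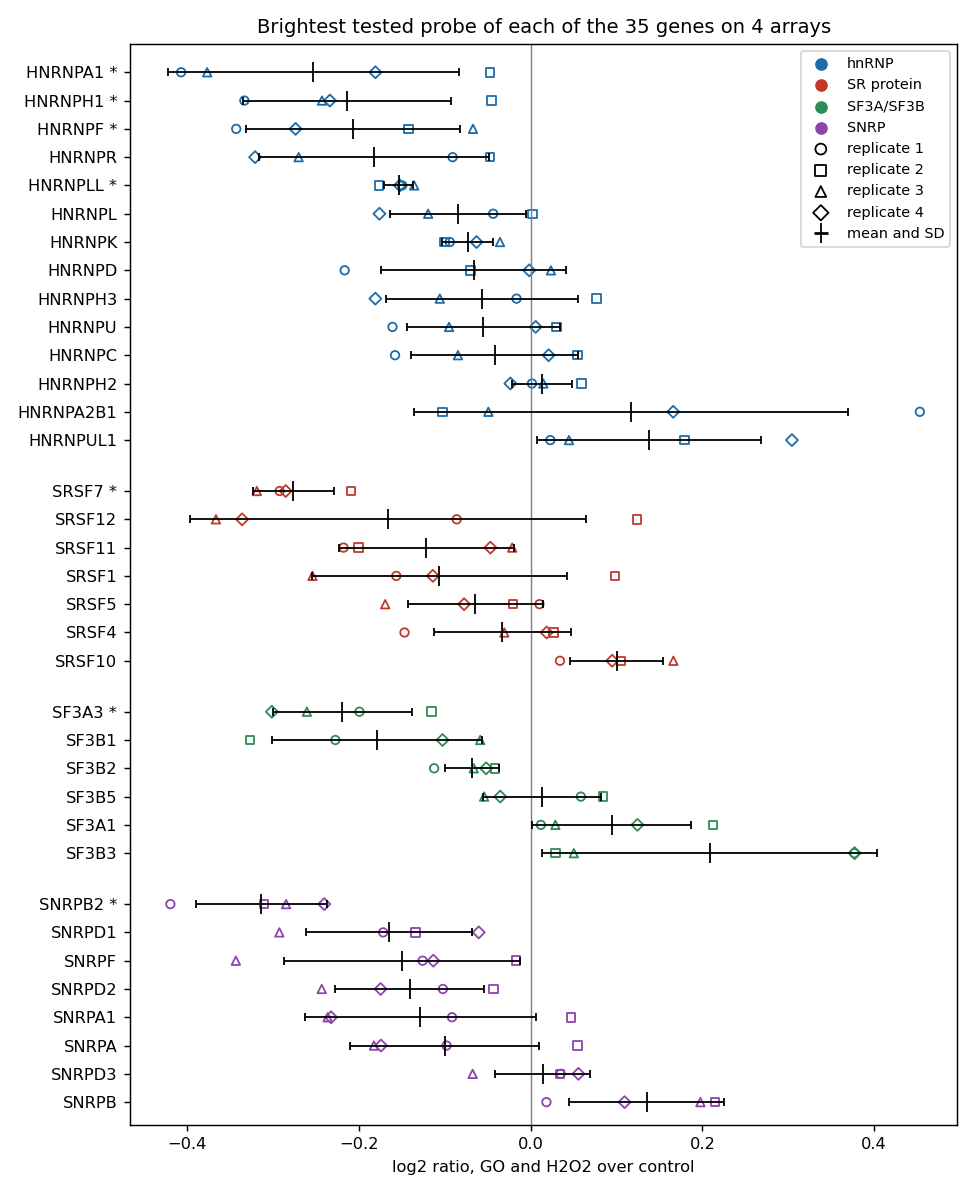
Log2 ratio (x axis, GO and H2O2 over control) of the brightest tested probe of each of 35 genes, by family. Open symbols are the 4 arrays, black marks are the mean and SD, and an asterisk marks the 7 genes past the limma threshold, all with a mean below 0.

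HNRNPA1 codes for hnRNP A1, a repressor of splice sites that also shuttles mRNA to the cytoplasm. It showed the largest differences and also the widest spread between probes of 1 gene, from −0.46 to 0.12 (log2). Its 10 probes lie on the + strand of chromosome 6 (build EquCab1, as in the file headers) within 3754 bases, in 4 groups that are here called regions 1 to 4 in the direction of the gene. An annotation of EquCab1 was not used here, so the probes are not placed in exons or UTRs. The 3 probes of region 1 are shown because they were the only member probes past the fold limit. They overlap, and the capitals mark the 53 bases that all 3 have in common.
HNRNPA1, chr6:71180852-71180911: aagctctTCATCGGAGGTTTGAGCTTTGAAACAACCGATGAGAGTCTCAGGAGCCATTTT
HNRNPA1, chr6:71180858-71180917: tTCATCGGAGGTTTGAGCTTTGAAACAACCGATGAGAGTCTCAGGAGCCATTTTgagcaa
HNRNPA1, chr6:71180859-71180918: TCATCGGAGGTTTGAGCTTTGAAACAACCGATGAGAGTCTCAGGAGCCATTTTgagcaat

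Region 2 holds 5 probes of which the first starts 714 bases after that of region 1. The last 2 of them are shown for contrast, since they had the highest ratios of the gene. Each is 60 bases long but spans 158 bases of the genome, so that 98 genomic bases lie between its parts and are not in the probe. The capitals mark the 40 bases that both share.
HNRNPA1, chr6:71181626-71181783: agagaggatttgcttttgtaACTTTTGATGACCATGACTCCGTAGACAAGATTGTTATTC
HNRNPA1, chr6:71181646-71181803: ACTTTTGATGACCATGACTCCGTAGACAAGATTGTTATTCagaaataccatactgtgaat

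The probes of region 1 had mean log2 ratios of −0.39, −0.46 and −0.40, and all were past the threshold (adjusted p = 0.0311, 0.0246 and 0.0286, limma). Averaged over these probes, replicates 1 to 4 gave −0.66, −0.11, −0.46 and −0.45. All 4 arrays were below 0, and replicate 2 was far closer to 0 than the other arrays. In region 2 the same arrays gave 0.13, −0.02, −0.02 and 0.18, with probe means from −0.01 to 0.12 and 0 of 5 probes called. The single probe of region 3, at chr6:71183346-71183405, had a mean of −0.04 ± 0.11 (SD, n = 4 arrays). The single probe of region 4, at chr6:71184546-71184605, was called lower, with −0.41, −0.05, −0.38 and −0.18 on replicates 1 to 4 (mean −0.25, adjusted p = 0.0477, limma). It is the brightest probe of the gene. Its call was lost with Agilent's processed signals (adjusted p = 0.0909, limma), whereas the 3 calls of region 1 were kept.

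HNRNPA1 thus had lower calls at both ends of the covered stretch and none in between. Region 1 minus region 2 was −0.78, −0.09, −0.44 and −0.63 on replicates 1 to 4 (mean −0.48 ± 0.30, SD), below 0 on 4 of 4 arrays. The exact two-sided permutation test gave p = 0.125, the smallest value that 4 arrays allow. Region 4 minus region 2 was −0.32 ± 0.21 and region 1 minus region 4 was −0.16 ± 0.11, each below 0 on 4 of 4 arrays with the same p by the exact permutation test. With 4 differences computed in this way, HNRNPU below included, no adjustment could bring them under 0.05. These comparisons were chosen after the values had been seen.

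**Figure D2:**
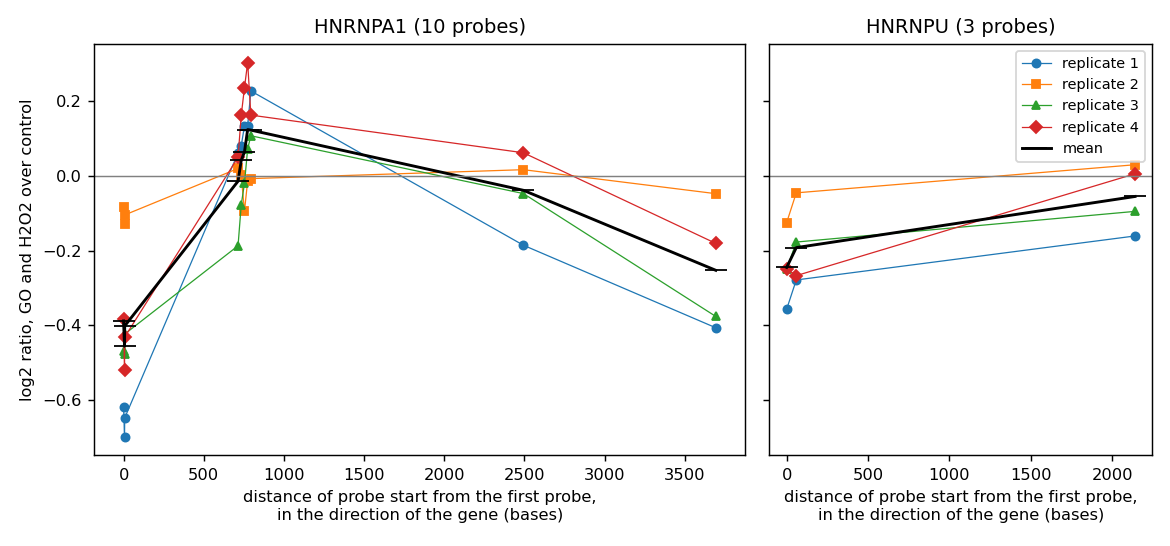
Log2 ratio (y axis) of each probe of HNRNPA1 (left) and HNRNPU (right) against the distance of its start from the first probe of the gene (x axis, bases). Coloured lines are the 4 arrays and the black line is their mean, and the mean of HNRNPA1 goes from −0.42 in region 1 to 0.07 in region 2 and back to −0.25 in region 4.

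HNRNPU codes for hnRNP U, or scaffold attachment factor A, which binds RNA and chromatin. Its 3 probes lie on the − strand of unplaced sequence (Un), and the first 2 in the direction of the gene were both called. They are shown because their calls, unlike the value of the brightest probe, put the gene among those lower in treated cells.
HNRNPU, chrUn:71619879-71620039: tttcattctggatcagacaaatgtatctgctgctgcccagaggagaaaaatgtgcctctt
HNRNPU, chrUn:71619820-71619879: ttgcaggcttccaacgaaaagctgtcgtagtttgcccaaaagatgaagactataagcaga

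The first of these probes had −0.36, −0.12, −0.25 and −0.25 on replicates 1 to 4 (mean −0.25, adjusted p = 0.0260, limma). The second had −0.28, −0.05, −0.18 and −0.27 (mean −0.19, adjusted p = 0.0477, limma). Both were below 0 on every array, and the second lost its call with Agilent's processed signals (adjusted p = 0.0644, limma). The brightest probe, at chrUn:71617739-71617798 and about 2081 bases from them, had a mean of −0.05 ± 0.09 (SD, n = 4) and missed the threshold (adjusted p = 0.431, limma). The called region minus this probe gave −0.16 ± 0.07 (SD), below 0 on 4 of 4 arrays (exact two-sided permutation p = 0.125, the smallest possible).

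HNRNPH1 and HNRNPF code for closely related proteins that bind runs of G in RNA. HNRNPH1 gave −0.33, −0.05, −0.24 and −0.23 on replicates 1 to 4, and HNRNPF gave −0.34, −0.14, −0.07 and −0.27. Both were below 0 on all 4 arrays (HNRNPH1 mean −0.21 ± 0.12, adjusted p = 0.0431; HNRNPF −0.21 ± 0.12, adjusted p = 0.0484, SD, limma). Their relatives HNRNPH2 (mean 0.01) and HNRNPH3 (−0.06) missed the threshold, and a difference between these genes was not tested. HNRNPH1 lies at chr14:2081245-2081304 and HNRNPF at chr1:68006659-68006718, each by a single probe. Both calls were lost with Agilent's processed signals.

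HNRNPLL, the hnRNP L-like regulator of alternative splicing known from lymphocytes, had the smallest spread among the called members. Its brightest probe, at chr15:55977683-55977742, gave −0.15, −0.18, −0.14 and −0.15 (mean −0.15 ± 0.02, SD, adjusted p = 0.0383, limma). The other probe of the gene starts 68 bases before it and had a mean of 0.08, on the other side of 0, so the gene's direction rested on 1 probe. The call was lost with Agilent's processed signals (adjusted p = 0.117, limma). HNRNPL, its paralogue, carried the brightest probe of the hnRNP family and missed the threshold (mean −0.08 ± 0.08, adjusted p = 0.221, limma), with 5 overlapping probes between −0.11 and −0.03.

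HNRNPUL1, an hnRNP U-like protein with a role in the DNA damage response, was the only member with a higher call. Its 5 overlapping probes all had means above 0, from 0.04 to 0.16. The called probe, at chr10:11862874-11862933, gave 0.11, 0.18, 0.15 and 0.19 on replicates 1 to 4 (mean 0.16 ± 0.04, SD, adjusted p = 0.0392, limma). All arrays were above 0 here, although the brightest of the 5 probes missed the threshold (adjusted p = 0.132, limma). A further probe, named only in its description as hnRNP U-like 1, was not found by the rule. It lies nearby at chr10:11863745-11863804, outside the 67 bases that the 5 probes cover, and had a mean of −0.06. The higher direction thus rested on 1 stretch of overlapping probes.

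The other hnRNP genes had no call. HNRNPD, which binds AU-rich elements and promotes mRNA decay, had all 6 probes below 0 (means −0.13 to −0.03). HNRNPA2B1, the closest relative of HNRNPA1, gave 0.45, −0.10, −0.05 and 0.17 on replicates 1 to 4, and its arrays lay on both sides of 0. HNRNPR had both probes below 0 (−0.18 and −0.12) on all 4 arrays, with adjusted p-values of 0.0715 and 0.0909 (limma). HNRNPC and HNRNPK had brightest probes at −0.04 and −0.07. Across the family, 9 of 42 probes were called lower (21.4%, against 7.59% of all tested probes) and 1 higher (2.38%, against 9.49%). The median log2 ratio was −0.07. Of the lower calls, 4 were probes of HNRNPA1. With 1 probe per gene, 4 of 14 genes were lower (28.6%, against 7.16% of all gene names).

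**Figure D3:**
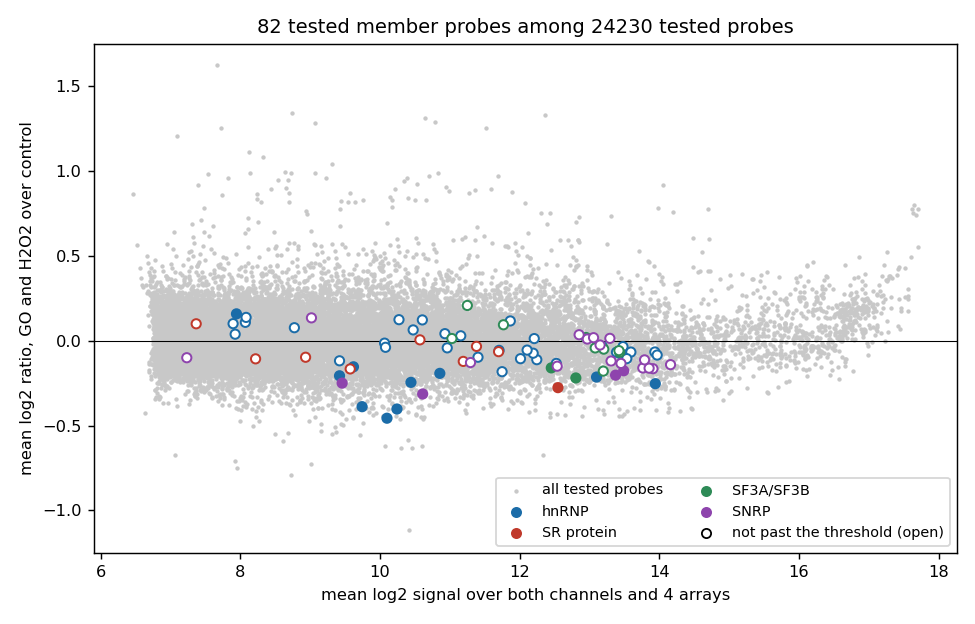
Mean log2 ratio (y axis) against mean log2 signal over both channels and 4 arrays (x axis) for 82 member probes, coloured by family, over all 24230 tested probes in grey. Filled symbols passed the limma threshold, and the members lie between log2 signals of 7.23 and 14.16, away from the 405 probes with a log2 signal above 16. The median log2 signal was 11.8 for the member probes and 8.97 for all tested probes, so the members were brighter.

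Among the SR proteins, 1 of 9 tested probes was called, and it was lower (11.1%, against 7.59% of all tested probes). This was the probe of SRSF7. SRSF7 is a small SR protein that carries a zinc knuckle and also takes part in mRNA export. Its single probe on the + strand is shown because it carries the one call of the family and because it is split over the genome. The span is 1257 bases, of which 1197 are not in the probe.
SRSF7, chr15:55822771-55824027: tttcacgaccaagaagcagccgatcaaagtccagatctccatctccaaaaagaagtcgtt

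The SRSF7 probe gave −0.29, −0.21, −0.32 and −0.29 on replicates 1 to 4 (mean −0.28 ± 0.05, SD, adjusted p = 0.0166, limma). Every array was lower by a similar amount. With Agilent's processed signals the mean was −0.22 and the call was narrowly lost (adjusted p = 0.0512, limma). The other SR genes missed the threshold, with brightest-probe means from −0.17 (SRSF12, a splicing repressor) to 0.10 (SRSF10, which is activated as a repressor by dephosphorylation). SRSF1, the founding SR protein, gave −0.16, 0.10, −0.25 and −0.11, and SRSF12 gave −0.09, 0.12, −0.37 and −0.34. In both, replicate 2 alone was above 0. The family median was −0.10 over the arrays together and −0.09, 0.04, −0.17 and −0.08 on replicates 1 to 4, so that replicate 2 differed in sign.

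SF3A3, a subunit of the SF3A complex of the U2 snRNP, was lower by both of its probes, which overlap within 91 bases of chromosome 2. The brighter probe, at chr2:18150374-18150433, gave −0.20, −0.12, −0.26 and −0.30 (mean −0.22 ± 0.08, SD, adjusted p = 0.0285, limma). The other gave −0.19, −0.12, −0.23 and −0.09 (mean −0.16, adjusted p = 0.0475, limma). No array of either probe was above 0.

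The mean log2 ratios of the SF3A and SF3B subunits lay on both sides of 0, and a difference between subunits was not tested. SF3B1, the large subunit that contacts the branch point, gave −0.23, −0.33, −0.06 and −0.10 (mean −0.18, adjusted p = 0.0660, limma). SF3B3 gave 0.38, 0.03, 0.05 and 0.38 (mean 0.21, adjusted p = 0.0967, limma). Both kept 1 sign on all arrays but missed the threshold. SF3A1 (mean 0.09) and SF3B5 (0.01) also missed it. SF3B2 carried the brightest probe of the family, with a mean of −0.07 ± 0.03 (SD, adjusted p = 0.237, limma). The median over 11 probes was −0.05, of which 5 were overlapping probes of SF3B2, and with 1 probe per gene it was −0.03.

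The SNRP genes had the lowest family median, −0.13 over 20 probes, of which 8 were probes of SNRPD1. Of the 20 probes, 4 were called lower (20%, against 7.59% of all tested probes), all from SNRPB2 and SNRPD1. With 1 probe per gene, 1 of 8 genes was lower (12.5%, against 7.16% of all gene names). SNRPB2 codes for U2B″, which binds the U2 RNA. Its brighter probe, at chr22:7774132-7774191, gave −0.42, −0.31, −0.29 and −0.24 on replicates 1 to 4 (mean −0.31 ± 0.08, SD, adjusted p = 0.0163, limma). The second probe, which does not overlap it, gave −0.24, −0.16, −0.20 and −0.40 (mean −0.25, adjusted p = 0.0273, limma). Thus both probes were lower on each array, and the brighter one had the lowest adjusted p among the members.

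SNRPD1, one of the Sm ring proteins, had 8 probes within 87 bases of chromosome 8, all with means below 0 (−0.20 to −0.11). Of these, 2 were called. The probe at chr8:33348336-33348395 gave −0.14, −0.14, −0.28 and −0.15 (mean −0.18, adjusted p = 0.0392, limma), and the probe at chr8:33348332-33348391 gave −0.23, −0.19, −0.32 and −0.07 (mean −0.20, adjusted p = 0.0419, limma). Replicate 3 was lowest in both. The brightest probe had a mean of −0.16 (adjusted p = 0.0614, limma). With Agilent's processed signals neither probe was called (adjusted p = 0.0719 and 0.0502, limma). Among the 8 probes are 2 pairs of identical sequence. Within these pairs the means differed by 0.03 and −0.05, and the single arrays by up to 0.108, and the second of these exceeds the gap between the called probes and the brightest one.

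The other Sm ring genes varied. SNRPD2, the brightest SNRP probe, gave −0.10, −0.04, −0.24 and −0.17 (mean −0.14, adjusted p = 0.0797, limma). SNRPF gave −0.13, −0.02, −0.34 and −0.11 (mean −0.15, adjusted p = 0.118, limma). SNRPD3, in contrast, had 5 overlapping probes between −0.03 and 0.04. SNRPB, which codes for the Sm proteins B and B′, gave 0.02, 0.22, 0.20 and 0.11 (mean 0.14, adjusted p = 0.0913, limma), above 0 on each array but not past the threshold. SNRPA (mean −0.10) and SNRPA1 (−0.13), proteins of the U1 and U2 snRNP, were below 0 on 3 of 4 arrays.

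Of 15 genes with at least 2 tested probes, 8 had all means below 0, 1 had all above 0 and 6 had means on both sides. No gene had calls in both directions. For 89 pairs of probes of a gene that shared 15 or more end bases, the median absolute difference between their mean log2 ratios was 0.0379. For 53 pairs that did not, it was 0.190, but 35 of these pairs were of HNRNPA1 (median 0.375, largest 0.581). Over the 18 pairs of other genes that did not share end bases it was 0.0704, and over their 79 pairs that did it was 0.0353. A difference between these medians was not tested. Pairs of the same gene are not independent of each other.

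The family medians moved with the array. On replicates 1 to 4 they were −0.08, −0.01, −0.04 and −0.11 for hnRNPs, −0.08, −0.04, −0.05 and −0.06 for SF3 genes and −0.13, −0.07, −0.23 and −0.04 for SNRP genes. These medians over probes were below 0 on every array, unlike that of the SR proteins on replicate 2. With 1 probe per gene the SNRP median on replicate 2 was 0.009, with 4 of 8 genes below 0. Cell cycle genes also differed between arrays. Of 20 tested, 0 passed the threshold by limma (2 at an unadjusted p under it, and 0 by the methods' t-test after adjustment), with medians of −0.25, 0.34, −0.57 and −0.37 on replicates 1 to 4. All 20 were above 0 on replicate 2 and none on replicate 3. The part of that difference in the values of the splicing genes was not tested.

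**Figure D4:**
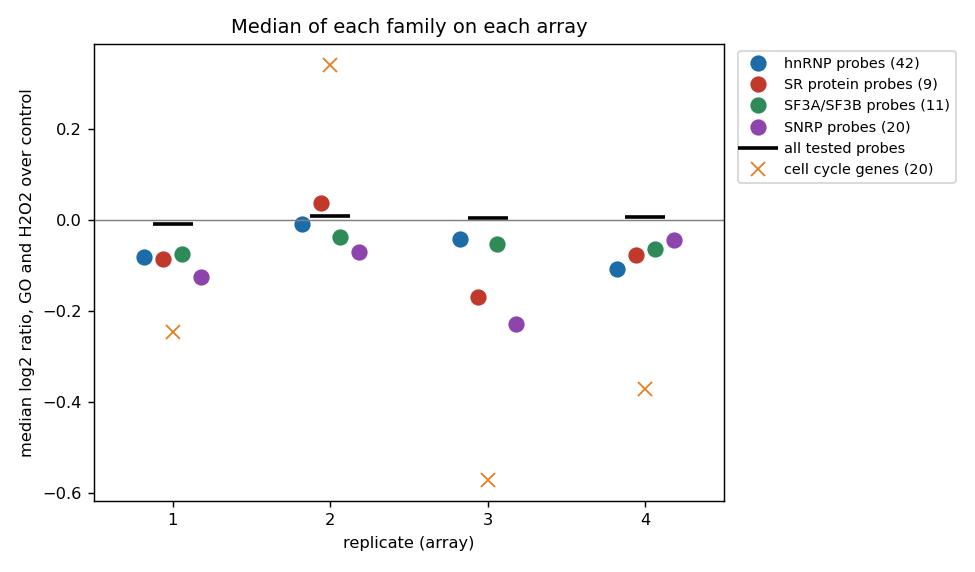
Median log2 ratio (y axis) of the tested probes of each family, of all tested probes and of 20 cell cycle genes on each of the 4 arrays (x axis). All family medians but that of the SR proteins on replicate 2 lie below 0, while the cell cycle median ranges from −0.57 to 0.34.

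Further genes of the splicing pathway were taken from lists outside the rule, each by its brightest probe. Of 56 tested other spliceosome components, 5 were higher (8.93%, against 9.93% of all gene names) and 8 lower (14.3%, against 7.16%), with a median log2 ratio of −0.06. Among the lower ones were SNRNP48 of the minor spliceosome (mean −0.28, adjusted p = 0.0223, limma) and CWC22, which loads the exon junction complex (−0.19, adjusted p = 0.0271). Among the higher ones were SNRNP35 of the minor spliceosome (0.30, adjusted p = 0.0156, limma), the exon junction protein RNPS1 (0.23, adjusted p = 0.0241) and NHP2L1, which binds U4 RNA (0.21, adjusted p = 0.0271). Each kept its sign on all 4 arrays, and with Agilent's processed signals the mean of SNRNP35 was 0.54.

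Of 36 tested other RNA-binding splicing regulators, 4 were higher (11.1%, against 9.93% of all gene names) and 5 lower (13.9%, against 7.16%), with a median log2 ratio of 0.008. These shares rest on few genes. RBFOX1, a regulator of muscle and neuronal exons, was higher (mean 0.32, adjusted p = 0.0181, limma), as was NOVA1 (0.26, adjusted p = 0.0166). TIAL1, a stress granule protein, was lower (−0.27, adjusted p = 0.0166, limma), as were the cold-induced RBM3 (−0.23, adjusted p = 0.0320) and YBX1 (−0.18, adjusted p = 0.0300).

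Of 21 tested kinases, methyltransferases, importins and assembly factors that act on SR or Sm proteins, 2 were higher (9.52%) and 1 was lower (4.76%), shares near or below those of all gene names. PRMT1, which methylates arginines of hnRNPs, gave 0.63, 0.34, 0.35 and 0.28 on replicates 1 to 4 (mean 0.40 ± 0.16, SD, adjusted p = 0.0186, limma). TNPO1, the importin of hnRNP A1, had a mean of 0.18 (adjusted p = 0.0368, limma). GEMIN6, of the complex that loads Sm rings, was lower (mean −0.24, adjusted p = 0.0412, limma). The calls of TNPO1 and GEMIN6 were lost with Agilent's processed signals (adjusted p = 0.0612 and 0.0822, limma). Of the genes named from these lists, PRMT1 alone had a fold change above 1.3. None of the genes named from these lists stayed past the threshold without replicate 1, 3 or 4, with median centring, with the methods' t-test or with the channels unpaired.

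The number of called members depended on the processing. Lower member calls outnumbered higher ones wherever calls were made. Their share, however, came close to that of all probes with Agilent's processed signals. With Agilent's processed signals 9 member probes were called, of which 8 were lower (9.76%, against 7.37% of all probes), and without replicate 2 there were 13, all lower (15.9%, against 7.51%). With median centring and with the methods' t-test 0 member probes passed, and 12 and 5 of all tested probes did.

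**Figure D5:**
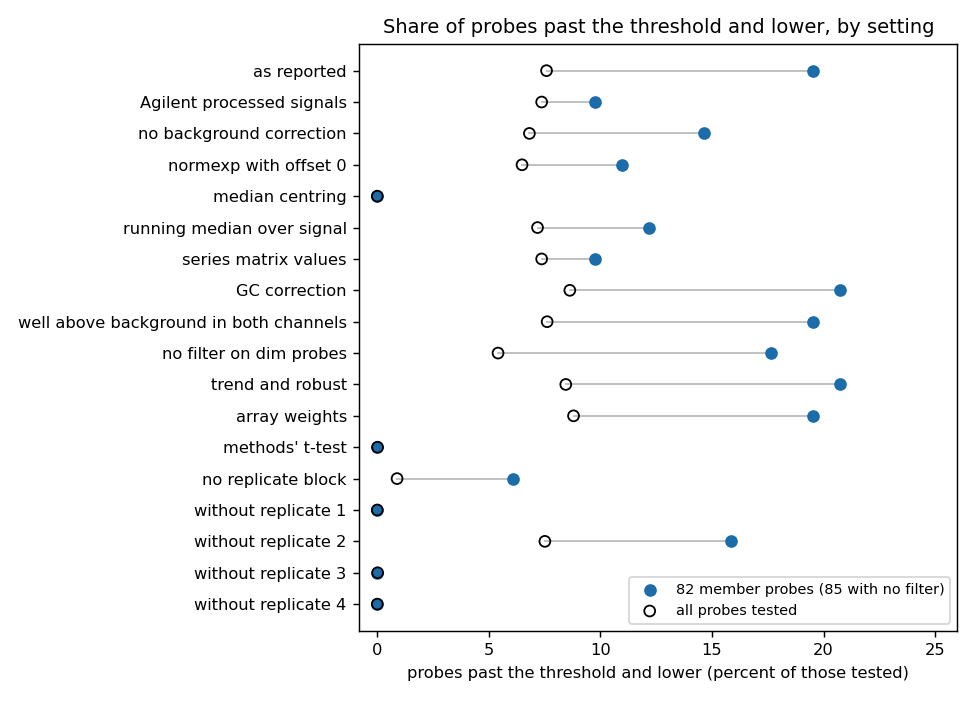
Percent of tested probes past the threshold and lower in treated cells (x axis) for member probes (filled) and all tested probes (open) under each setting (y axis). As reported the shares are 19.5% and 7.59%, with Agilent's processed signals 9.76% and 7.37%, and settings at 0 for the members had next to no lower calls in all.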

How the data were processed

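Deposited Agilent horse array files were used. Per the file headers the authors extracted spot intensities with Feature Extraction version 10.10.1.1. The deposited log10 ratio, and the authors' series matrix with the same values (median 0 per column), is processed red over processed green intensity. Mean intensities were corrected here by normexp (offset 50), normalised by loess with control spots at weight 0, and converted to log2 ratios, red over green. Control and outlier spots were dropped and spots of a probe averaged. Probes well above background on all 4 arrays in 1 channel were tested (24230 of 43603) with limma version 3.58.1 in R version 4.3.3 (lmFit, eBayes, mean ratio against 0, two-sided, Benjamini-Hochberg, threshold 0.05). The fold limit of 1.3 and Student's test (the methods' t-test) are those of the study's methods section. For its gene lists from these arrays the study names a fold limit of 1 instead, which excludes nothing by size. Counts, medians and exact permutation tests were made in Python version 3.11.15 with SciPy version 1.17.1. The procedure was tested on simulated data.

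A gene stands by its brightest tested probe. Named were, per family, up to 5 genes per direction with the smallest p among calls of 1 sign on all arrays, the gene with the brightest probe, genes with calls in both directions, called probes at the fold limit, and up to 3 genes per direction of each other splicing list. Other members are named with values chosen after these were seen. Members and lists were chosen with earlier results of these data known. Alternatives were other background corrections (Agilent's processed signals, none, offset 0), the series matrix values, median centring, a running median over signal, a GC correction, other filters, limma with trend and robust, array weights, unpaired channels, the methods' t-test, 1 probe per gene, the mean over a gene's probes, and leaving out each array. Probe positions and sequences are those of the array files (EquCab1). Some genes that the rule names are not reported here.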

Additional observations from a re-analysis of the deposited data

Results flagged for a closer look

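In 60 sets of 4 array values, 3 held an array far from the others, about the number that chance gives at 1 in 20. A called SNRPD1 probe, at chr8:33348336-33348395, had −0.28 on replicate 3, with the other arrays between −0.15 and −0.14. CWC22 had −0.24 on replicate 4, with the others between −0.18 and −0.17. RNPS1 had 0.12 on replicate 2, with the others between 0.25 and 0.28.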

How the results depend on the processing

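Of 17 called member probes, 9 remained called when Agilent's processed signals or the series matrix were used, 10 with normexp offset 0, 11 with a running median and 0 with median centring or the methods' t-test (unadjusted 4 and 26). All 17 kept their sign in every setting. With 1 probe per gene there were 7. As 8 unpaired channels, without the replicate block of the array, 5 remained (HNRNPA1, SNRPB2, SRSF7). Leaving out an array gave 0 (replicates 1, 3 or 4, unadjusted 24, 26 and 24) to 13 calls (replicate 2, of which 11 were among the 17). The 3 calls at a fold change of 1.3 became 0 with median centring, with the methods' t-test and without replicate 1, 3 or 4, and were 3 without replicate 2. The SF3 median was −0.00705 with median centring, −0.024 with a running median and −0.027 with 1 probe per gene. HNRNPL, uncalled, turned to 0.0001847 with median centring. The other settings gave 13 to 18 calls. The mean over all probes of a gene, which was not tested, was −0.12 for HNRNPA1 and −0.04 for HNRNPLL. HNRNPA1 region 1 minus region 2, added after seeing the data, ranged from −0.62 to −0.38 without 1 array and from −0.52 to −0.48 across processings. The signal over background limits the 3 untested probes.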

Other observations

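The array also holds probes whose description, but not symbol, names a protein of these families. All 22 were tested, for 10 proteins, and 20 had a mean log2 ratio below 0 (90.9%, against 49.2% of all tested probes, median −0.07). Probes described as hnRNP D, hnRNP U-like 1 and SRSF4 carry names already among the members, and some probes overlap, so these are not counts of separate further genes. By limma 5 were lower (22.7%, against 7.59%) and 0 higher (against 9.49%). They were looked up after values were seen. Both overlapping probes described as SNRPG, an Sm ring protein, were lower (means −0.34 and −0.34, adjusted p = 0.0440 and 0.0451, limma). The first gave −0.24, −0.09, −0.65 and −0.41 on replicates 1 to 4, below 0 throughout and lowest on replicate 3. The probe of hnRNP M was lower (mean −0.19, adjusted p = 0.0471, limma), as were 1 of 4 probes of SRSF6 (−0.19) and 1 of 3 of hnRNP A3 (−0.19). Both probes of SRSF3 were below 0 on average (−0.14 and −0.16) and missed the threshold.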
